A study of Macaca fascicularis with 23 samples.

Results

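A group of 69 genes was followed in pluripotent stem cells (PSCs) of the cynomolgus monkey (Cm). The genes were higher in primed than in naïve-like PSCs. They stayed at about the naïve-like level after the factors that hold the naïve-like state were withdrawn. The members were chosen by their values in these same libraries. Expression was taken as log2(RPM + 1), where RPM is the reads of a gene scaled to a fixed library total, and 2776 of the 8415 genes analysed exceeded 4 on this scale (15 RPM) in at least 1 of 21 PSC libraries. A member had a mean over 7 cell lines that was lower than in primed cells by at least 0.8 in both the naïve-like and the differentiated cells, was lower in at least 6 of the 7 lines in both, and differed between differentiated and naïve-like cells by no more than 0.8. The falls from the primed level and the likeness of the other levels are therefore the selection itself, and they are given below as a description without a test. Not all members were well expressed in primed cells. The primed mean was above 4, about the paper's lower limit of reliable detection, for 47 members. In all 7 primed libraries 34 members were above 4.

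SC3-seq, which counts the 3′ ends of amplified cDNA so that transcript length is not divided out, was done on 1 library per line and medium. CMK6 (male), TRSK (male) and CMK9 (female) are embryonic stem cell (ESC) lines. The 4 others are induced pluripotent stem cell (iPSC) lines from 1 female foetus. Of these, iPS-L3 and iPS-L6 began as liver and iPS-S6 and iPS-S12 as stomach cells. Cultured somatic cells of both organs gave 2 further libraries. The question behind the 3 media was how far Cm PSCs can be moved from the primed to a naïve-like state and what becomes of them when the support is removed.

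Primed cells were kept in bFGF/KSR medium, which holds basic fibroblast growth factor and a serum replacement. Naïve-like cells carried PiggyBac transgenes for human KLF2 and human NANOG that doxycycline (Dox) switches on, together with the EOS-GFP reporter of pluripotency, and grew in K5cLD medium. That medium holds CHIR99021 (a GSK3 inhibitor), forskolin (an activator of adenylyl cyclase), kenpaullone (a kinase inhibitor), SB590885 (a BRAF inhibitor) and Gö6983 (a PKC inhibitor), with leukaemia inhibitory factor (LIF) and Dox. Differentiated cells were naïve-like cells moved to K5c medium, the same medium without LIF and Dox. Naïve-like and differentiated cells thus shared the transgenes, the inhibitors, the N2 and B27 supplements and the absence of added bFGF, and the 69 genes differ between cells with and cells without all of these at once. The library numbers run by medium, so that a batch of library preparation and the medium cannot be told apart.

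Primed PSCs resemble the epiblast after implantation, are flat, adherent colonies and depend on FGF and activin signals, whereas naïve PSCs resemble the earlier epiblast and form domed colonies. ID3, 1 of the genes that mark this group, encodes a helix-loop-helix protein without a DNA-binding region that blocks other helix-loop-helix factors and is a direct target of BMP signalling. FBLIM1, the other, encodes migfilin, which ties filamin and actin to the sites where cells hold on to their matrix. Cells spread on a matrix also keep YAP and WWTR1 (TAZ), the co-activators governed by the Hippo kinases, in the nucleus, where they switch on genes such as CCN2.

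The libraries held an estimated 860533 to 7986136 reads, where the most frequent RPM value above 0 was taken as the step of 1 read. By this estimate 3 reads corresponded to between 0.376 and 3.49 RPM, a floor that covers counting error only. Some values lay below 1 such read, such as F3 at 0.177 RPM in differentiated iPS-S6, where the step was 1.06 RPM. Summed markers of PSCs (such as POU5F1, SOX2, LIN28A and DPPA4) lay between 971 and 2582 RPM in primed libraries. The sums lay between 1776 and 2765 RPM in naïve-like and between 1188 and 2290 RPM in differentiated libraries, but at no more than 1.76 RPM in somatic cells. The medians of LIN28A, SOX2 and LIN28B were not lower in differentiated than in primed libraries, and the other markers went the other way. Differentiated and primed medians were 20.2 and 238 RPM for POU5F1 and 29.3 and 120 RPM for DPPA4. They were 27.0 and 113 RPM for L1TD1 (its expressed entry) and 0.999 and 33.2 RPM for CRIPTO. COL1A2 and PDGFRA, markers of fibroblasts and mesenchyme, summed to between 23.2 and 579.6 RPM in primed libraries, with the most in TRSK, to between 6.80 and 65.6 RPM in naïve-like and to between 8.50 and 261 RPM in differentiated libraries. They summed to 4516 and 4854 RPM in the somatic libraries. PDGFRA was at no more than 6.20 RPM in primed libraries, so that the sums there were mostly COL1A2. AFP, ALB and APOA2, which define hepatocytes, were at 0 in both somatic libraries, the liver library included, and TF was at no more than 0.973 RPM. Markers of gastric epithelium (CLDN18, TFF1, TFF2 and PGC) summed to 444 RPM in 1 somatic library and to 0 in the other. These are bulk libraries, in which fewer cells of a type and less RNA per cell cannot be told apart.

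Primed CMK9 stood apart from the other primed libraries over these 69 genes. It was the lowest primed library for 28 of them (40.6%), and for 14.0% of the 2776 expressed genes, and with 7986136 reads it was also the deepest library. Below, the main median differences over all members and some named members that rest on this line are also given without it. Medians of smaller groups of members, and the values of members such as ETS2, CREB5, NT5E and TAC1, are given only with it. Leaving it out moved a mean fall by more than 1.5 times in 2 members, CCN2 and RUNX1. The part of its depth in the difference was not tested.

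The 69 genes came from 110 that fell by at least 0.8 in both comparisons. Of these, 89 were also lower in at least 6 of 7 lines in both, and 10 of the 89 were left out because differentiated cells were above naïve-like cells by more than 0.8 and 10 because they were below by more than that. The genes just inside the threshold were SHC1, an adaptor between receptor tyrosine kinases and Ras (mean difference from primed -0.85 in naïve-like and -0.81 in differentiated cells), UBE2H, a ubiquitin-conjugating enzyme (-0.82 and -0.84), and POU2F1, the octamer-binding factor OCT1 (-0.83 and -0.92). Just outside lay, among others, IER5 (-1.05 and -0.76) and ETNK2 (-0.81 and -0.76).

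Over the 69 members the median difference from primed was -1.58 in naïve-like cells, with a range from -3.39 to -0.82, and -1.50 in differentiated cells, with a range from -3.49 to -0.81. The medians over all 2776 genes were 0.06 and 0.05. With CMK9 left out the members' medians were -1.73 and -1.63. On the log2(RPM + 1) scale the median member stood at 5.00 in primed cells, at 3.72 in naïve-like cells and at 3.53 in differentiated cells, beside 4.93, 5.00 and 4.94 for all expressed genes. Differentiated cells were above naïve-like cells on average for 37 members and below for the rest, by a median of 0.04.

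**Figure D1:**
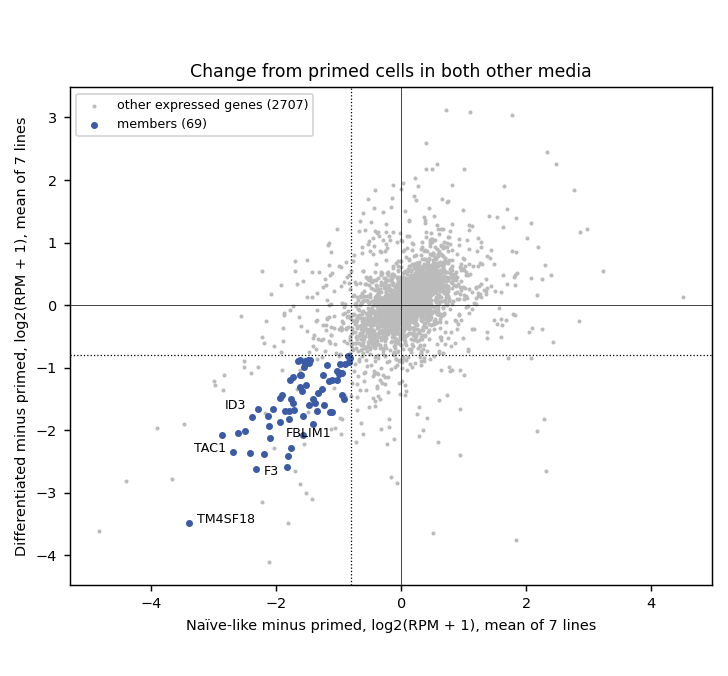
Mean difference from primed cells over 7 lines, on the log2(RPM + 1) scale, in naïve-like cells (horizontal) and differentiated cells (vertical), with 1 point per expressed gene and dotted lines at the threshold of -0.8. The 69 members (blue) lie in the lower left corner because the selection put them there, with TM4SF18 at -3.39 and -3.49.

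Single libraries were then read, since a mean can hide a line that goes the other way. The choice had already asked for lower values in at least 6 of the 7 lines, so that these counts are a description. In 24 members all 7 lines were lower than their own primed library in both other media, a count not made over all expressed genes. A stricter reading, in which every primed library lay above every one of the 14 other PSC libraries, held for 6 members (ID3, FBLIM1, S100A16, SHC1, CSRNP1 and BAIAP2L1), and 0.324% of all expressed genes met it. CSRNP1 is a nuclear transcription factor and BAIAP2L1 a membrane-bending protein that binds actin, and both were named here after their values were seen. For the other members the primed and the other libraries overlapped in at least 1 library.

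ID3 lay between 272 RPM (iPS-S12) and 949.9 RPM (CMK9) in the 7 primed libraries, with a median of 428 RPM. It lay between 47.3 and 120.5 RPM (median 82.9) in naïve-like and between 82.8 and 198 RPM (median 128) in differentiated libraries. All primed values were above all others, and the ranges of naïve-like and differentiated libraries overlapped. The mean on the log2(RPM + 1) scale was 8.76 ± 0.56 for primed cells (SD, n = 7 lines), 6.38 ± 0.45 for naïve-like cells and 6.98 ± 0.39 for differentiated cells. ID3 was at 71.6 RPM in somatic liver cells and 634 RPM in somatic stomach cells.

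FBLIM1 lay between 219 and 361 RPM (median 273) in primed, between 53.4 and 126 RPM (median 69.9) in naïve-like and between 32.9 and 174 RPM (median 69.2) in differentiated libraries. The primed libraries were a narrow band above the rest, at 8.15 ± 0.25 (SD, n = 7 lines), while differentiated cells were spread more widely, at 6.29 ± 0.78. The liver and stomach libraries had 322 and 240.0 RPM of FBLIM1, within or near the primed range.

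**Figure D2:**
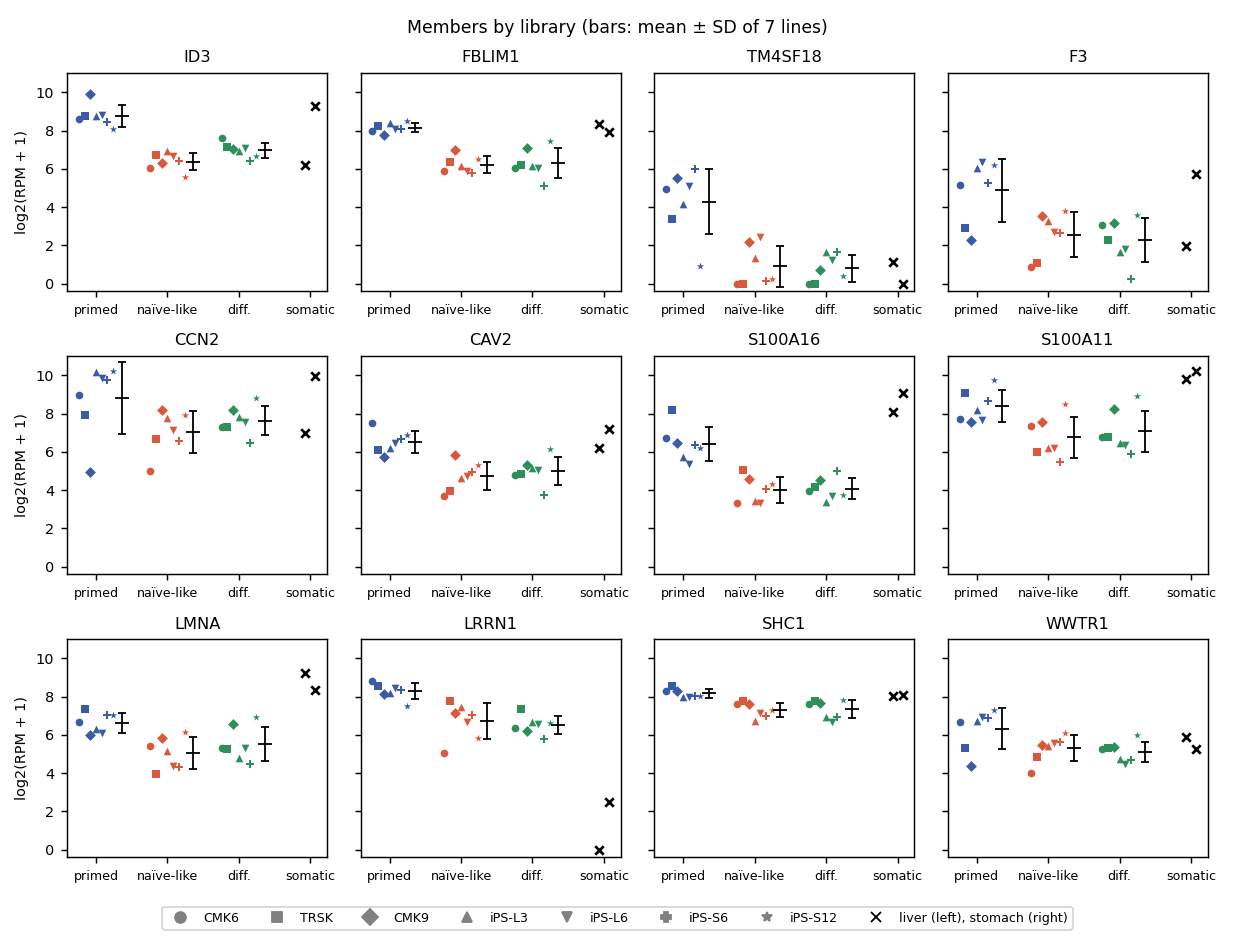
Expression of 12 members in every library, log2(RPM + 1), by condition, with 1 symbol per cell line and bars at the mean ± SD of 7 lines. Crosses show liver and stomach cells. For ID3, FBLIM1, S100A16 and SHC1 each primed symbol lies above each naïve-like and differentiated symbol, and for CCN2, F3 and WWTR1 the primed CMK9 diamond is the lowest primed symbol.

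Among the members, 15 encode surface proteins and receptors, with median falls to -1.71 in naïve-like and -1.70 in differentiated cells. TM4SF18, a protein that crosses the membrane several times, showed the deepest fall of all. It lay between 0.886 and 63.0 RPM in primed libraries (median 29.8), at no more than 4.43 RPM in naïve-like and at no more than 2.13 RPM in differentiated libraries, with 2 libraries at 0 in each of the latter. Primed iPS-S12, at 0.886 RPM, lay among these low values, and the other 6 primed libraries had 9.41 RPM or more.

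F3, or tissue factor, the receptor that starts blood coagulation, lay between 3.88 and 82.5 RPM in primed libraries (median 37.2), between 0.808 and 13.1 RPM in naïve-like and between 0.177 and 11.1 RPM in differentiated libraries. The 2 lowest primed values, in CMK9 and TRSK (6.47 RPM), lay within the range of the others and the remaining 5 lay above it. Its mean differences were -2.32 and -2.62 over 7 lines, and -2.92 and -3.21 without CMK9. NT5E, the ecto-enzyme CD73 that makes adenosine, had 2.25 to 78.0 RPM in primed libraries, with a median of 6.97 RPM. It was at 0 in 4 naïve-like and 4 differentiated libraries, and its highest values there were those of naïve-like CMK9 (4.32 RPM) and differentiated iPS-S12 (13.6 RPM). Levels this low are near the floor of 3 reads in many libraries.

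TNFRSF1B, a receptor for tumour necrosis factor, lay between 4.92 and 27.9 RPM in primed, between 1.11 and 6.06 RPM in naïve-like and between 0 and 7.31 RPM in differentiated libraries. LRRN1, a membrane protein with leucine-rich repeats known from neurons, had the highest primed median of the surface members by RPM, at 323 RPM, with 182 to 453 RPM in primed, 32.2 to 218 RPM in naïve-like and 55.2 to 162 RPM in differentiated libraries. Only its primed and differentiated ranges were apart. The Eph receptors EPHA2 and EPHB3, which read ephrins on neighbouring cells, were also members, as were the adhesion proteins ALCAM and CNTN4 and the surface proteins VTCN1, DCBLD1, CD109, RHCE, TPBG and SERINC2. ALCAM was the steadiest of these, at 38.2 to 82.4 RPM in primed against 9.05 to 27.4 RPM in naïve-like and 7.43 to 41.5 RPM in differentiated libraries, where iPS-S12 alone lay above the lowest primed library, iPS-L3.

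The secreted and matrix members numbered 6, with median differences of -1.86 and -1.43. TAC1, the precursor of substance P, lay between 0 RPM (CMK9) and 50.9 RPM (iPS-S12) in primed libraries (median 7.69), at no more than 1.13 RPM in naïve-like and at no more than 5.06 RPM in differentiated libraries. CCN2 (CTGF), a secreted matrix-associated protein, was at 29.9 RPM in primed CMK9 but had a primed median of 859 RPM and a maximum of 1179 RPM. Its naïve-like libraries lay between 31.2 and 288 RPM (median 142) and its differentiated libraries between 87.0 and 446 RPM (median 191). Its mean differences were -1.79 ± 2.36 and -1.20 ± 2.13 (SD, n = 7 lines), and -2.62 ± 0.92 and -1.94 ± 0.90 over the 6 lines without CMK9. Without that 1 library the primed values of CCN2 were above most others, and with it the SD of the difference exceeded its mean.

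CYTL1, a small secreted cytokine-like protein, lay between 60.2 and 130 RPM in primed, between 8.66 and 67.1 RPM in naïve-like and between 35.3 and 88.9 RPM in differentiated libraries. The other members of this kind were the guidance cue SEMA3A, the collagen VI chain COL6A1 and the matrix protease ADAMTS4.

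Transcription factors and co-regulators made up 13 members, with median differences of -1.46 and -1.69. ETS2, a factor of the ETS family downstream of Ras and ERK, lay between 23.2 RPM (CMK9) and 144 RPM in primed libraries (median 112), between 14.3 and 42.3 RPM in naïve-like and between 7.43 and 49.4 RPM in differentiated libraries. CREB5, a factor that binds cAMP response elements, lay between 6.14 RPM (CMK9) and 28.2 RPM in primed (median 23.2), between 0.693 and 12.6 RPM in naïve-like and between 3.10 and 19.9 RPM in differentiated libraries. Primed CMK9 was the only primed library of ETS2 within the range of the others, and for CREB5 it was 1 of 2.

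WWTR1 (TAZ) lay between 19.5 RPM (CMK9) and 156 RPM in primed (median 107), between 14.9 and 67.5 RPM in naïve-like and between 21.6 and 63.4 RPM in differentiated libraries. Its mean differences were -1.03 and -1.20, and -1.38 and -1.57 without CMK9. TBX15, a T-box factor of skeletal development, was low throughout, at 2.65 to 23.02 RPM in primed libraries, no more than 1.60 RPM in naïve-like and no more than 7.60 RPM in differentiated libraries. The remaining factors were BHLHE40, HIVEP3, CSRNP1, SATB1, RUNX1, HBP1, SSBP3 and POU2F1, beside ID3.

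Proteins of the cytoskeleton, its regulators and the nuclear lamina were 10 members, with median differences of -1.61 and -1.12. CAV2, a caveolin that builds membrane pits together with CAV1, lay between 51.5 and 183 RPM in primed (median 88.3), between 12.1 and 57.1 RPM in naïve-like and between 12.2 and 69.0 RPM in differentiated libraries. LMNA, which encodes the A-type lamins of the nuclear envelope, lay between 63.5 and 162 RPM in primed, between 14.8 and 71.4 RPM in naïve-like and between 21.2 and 121 RPM in differentiated libraries, where iPS-S12 was highest. Both genes overlapped between primed and other cells, with CMK9 at the low end of the primed range. The regulators ARHGAP29, ARHGAP31 and PLEKHG1, the Cdc42 effector kinase CDC42BPA and the actin-linked proteins BAIAP2L1, PPP1R18 and EFHD2 completed the set with FBLIM1.

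The S100 proteins, small calcium-binding proteins, were S100A16, S100A11 and S100A13. S100A16 lay between 40.7 and 287 RPM (TRSK) in primed, between 8.87 and 32.6 RPM in naïve-like and between 9.56 and 30.8 RPM in differentiated libraries, without overlap. S100A11 lay between 190 and 875 RPM in primed, between 42.7 and 365 RPM in naïve-like and between 59.2 and 487 RPM in differentiated libraries, and the high end in all 3 conditions was iPS-S12. S100A13 and S100A16 were the only members that are next to each other in the order of the expressed genes on the chromosomes, out of 67 members that could be placed. TRSK, the highest primed line for S100A16, was also the highest primed line for COL1A2 (579 RPM). It was at 0.588 RPM for PDGFRA, where the primed maximum was 6.20 RPM. The part of fibroblast-like cells in the S100A16 level was not tested.

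Signalling and trafficking proteins inside the cell were 10 members, with median differences of -1.13 and -1.08, the smallest medians of any of these groups in naïve-like cells. RABGAP1L, which switches off Rab GTPases, lay between 13.4 and 81.3 RPM in primed, between 4.93 and 15.5 RPM in naïve-like and between 1.06 and 10.5 RPM in differentiated libraries. PTPN14, a tyrosine phosphatase that binds YAP, lay between 66.4 and 114 RPM in primed, between 32.1 and 62.2 RPM in naïve-like and between 26.0 and 68.6 RPM in differentiated libraries. SHC1 had the highest levels of this set, at 252 to 376 RPM in primed against 106 to 219 RPM in naïve-like and 103 to 227 RPM in differentiated libraries. SHC1 was apart in every library although its mean fall was among the smallest, and RABGAP1L fell further, in each of the 7 lines, although primed TRSK lay below naïve-like CMK9. UBE2H, TRIM56, SKAP2, SPSB1, RASA2, PLK3 and DNAJC6, the auxilin of neurons, were the others.

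ECE1, UPP1 and LFNG, which are enzymes, were also members. No role is given for 8 members. Of these, LOC102120093 lay between 1.18 and 59.9 RPM in primed libraries and at no more than 4.69 and 7.31 RPM in naïve-like and differentiated libraries, and LOC101865018 between 3.13 and 29.6 RPM against no more than 15.1 and 25.3 RPM. PCNXL2 lay between 4.87 and 31.4 RPM in primed, between 0.378 and 7.96 RPM in naïve-like and at no more than 3.37 RPM in differentiated libraries. OCIAD2 lay between 34.7 and 241 RPM in primed, between 8.66 and 43.4 RPM in naïve-like and between 4.01 and 126 RPM in differentiated libraries. In each of these genes at least 1 primed library fell within the range of the others. LOC102139487, C5H4orf19, FAM131B and FAM114A1 were the rest.

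**Figure D3:**
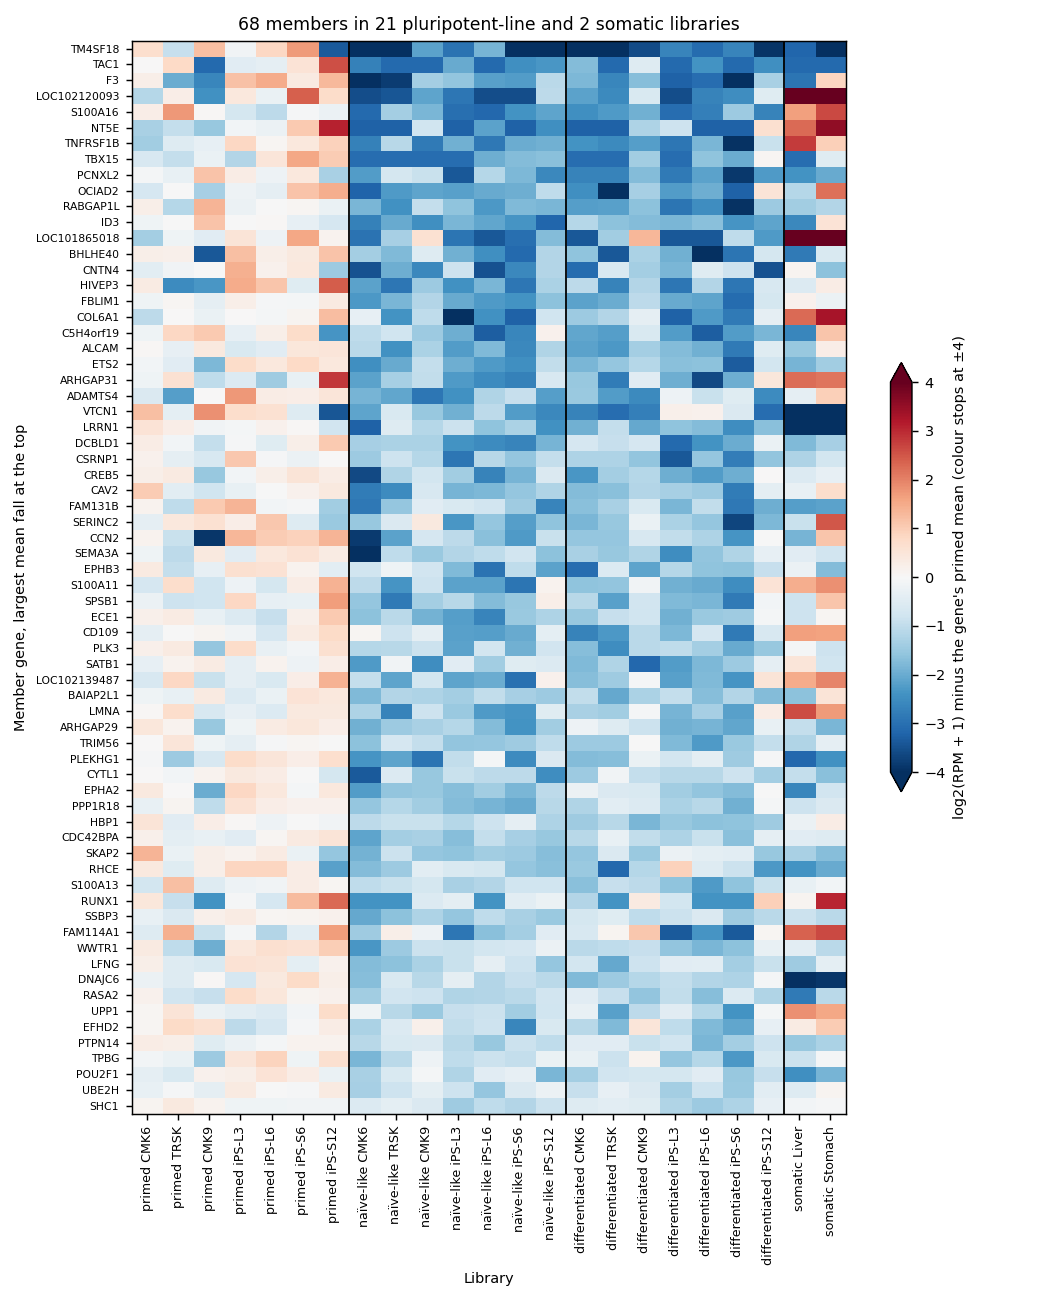
Members (68 of the 69 as rows, deepest mean fall at the top) in all 23 libraries (columns, by condition), as log2(RPM + 1) minus the gene's mean over the 7 primed libraries, with colours that stop at ±4. Blue fills most of the naïve-like and differentiated columns. Some cells there are above the primed mean, such as S100A11 and LMNA in differentiated iPS-S12 and LOC101865018 in naïve-like and differentiated CMK9. Primed CMK9 is below the other primed columns for genes such as CCN2 and ETS2. The somatic columns hold both deep red (LOC102120093, LOC101865018) and deep blue (VTCN1, LRRN1).

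The lines differed in how far the members fell. In CMK9 the members' median difference from primed was -0.52 in naïve-like and -0.47 in differentiated cells, and 22 and 28 of the 69 were not lower. In the other 6 lines the median lay between -1.91 and -1.24 in naïve-like cells and between -2.24 and -0.99 in differentiated cells, and between 0 and 4 members per line were not lower. Of the 45 members with an exception in at least 1 line, 30 had it in CMK9, 20 of them in both media. The exceptions in the other lines numbered 6 in TRSK, 5 in iPS-S12, 3 in iPS-L3, 2 in CMK6, 1 in iPS-L6 and 0 in iPS-S6.

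The largest exceptions, named after their values were seen, were CCN2, BHLHE40 (a helix-loop-helix repressor) and RUNX1 (a Runt-domain factor), all in CMK9. CCN2 was higher than in primed CMK9 by 3.22 in naïve-like and 3.25 in differentiated CMK9, BHLHE40 by 2.88 and 2.13, and RUNX1 by 1.84 and 2.74. In primed CMK9 the 3 genes were at 29.9, 1.25 and 0 RPM, where the primed medians were 859, 27.1 and 4.12 RPM. The mean differences of BHLHE40 went from -1.76 and -2.28 to -2.53 and -3.01 without CMK9, and those of RUNX1 from -1.25 and -1.12 to -1.77 and -1.76. ID3 went the other way, since primed CMK9 was its highest library, and its mean differences were -2.18 ± 0.28 and -1.60 ± 0.38 (SD, n = 6 lines) without that line.

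Line iPS-S12 was at the high end. It was the highest primed library for 23 of the 69 members, against 22.1% of all expressed genes, and the highest differentiated library for 35, which is 50.7% of the members against 19.6% of all expressed genes. Naïve-like CMK6 was the lowest naïve-like library for 28 members, 40.6% against 25.4% of all expressed genes. Differentiated iPS-S6 was the lowest differentiated library for 28 members, 40.6% against 22.4%. It was also among the shallowest libraries, with 942028 reads, and the part of depth in this was not tested.

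**Figure D4:**
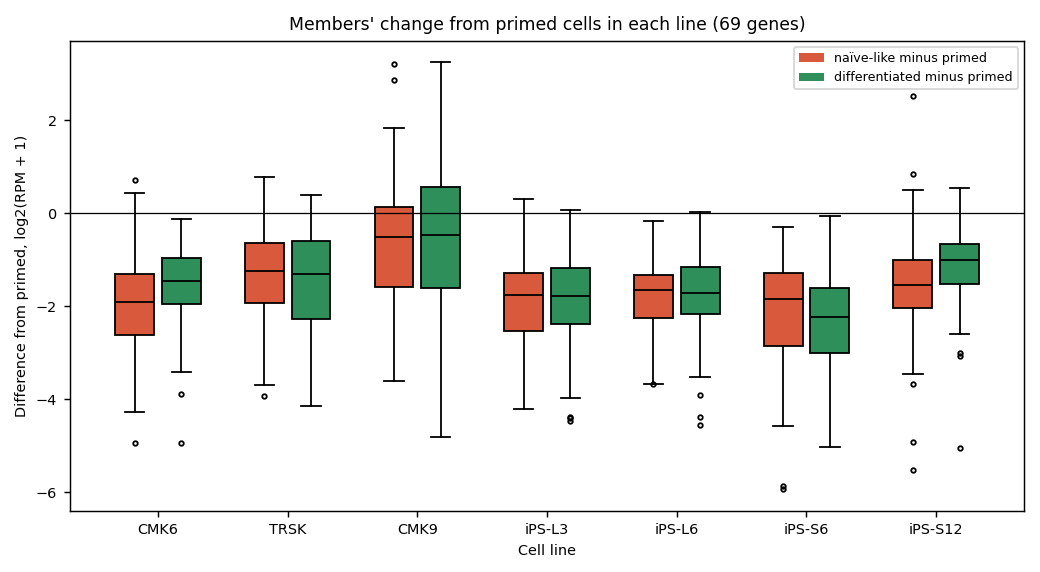
Difference from the line's own primed library, log2(RPM + 1), for the 69 members in each line, naïve-like (orange) and differentiated (green). Boxes span the quartiles with a line at the median, whiskers show the bulk of the genes and circles single genes beyond them. The boxes of CMK9 sit across 0, with medians of -0.52 and -0.47, and those of the other 6 lines lie below 0.

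Since the choice used all 7 lines, it was repeated on 6 lines, with 1 allowed to differ, and read in the seventh. The left-out line was not fully unseen, because the filter (above 4 in at least 1 of 21 PSC libraries) still included it. In the main choice 23 members were above 4 only in primed libraries. ADAMTS4 and FAM131B passed only through primed iPS-L3 (4.62 and 4.22), so their falls in that line are partly selected. The part of the filter in the counts below, beside the shares of all expressed genes, was not tested. Genes chosen without CMK6 numbered 79, and 66 of them were lower in both media in CMK6, where 30.7% of all expressed genes were. In TRSK it was 63 of 75 (26.3% of all genes), in iPS-L3 57 of 61 (33.7%) and in iPS-L6 65 of 66 (35.9%). In iPS-S6 it was 62 of 63 (33.4%) and in iPS-S12 66 of 79 (34.7%). CMK9 was again different, with 39 of 91 genes lower in both media, beside 32% of all expressed genes, and with median differences of -0.18 and 0.06 over the 91. In the 6 other lines, each read when left out, the median differences lay between -1.88 and -1.15 in naïve-like cells. They lay between -2.53 and -0.89 in differentiated cells.

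Pathway lists were then read for the genes that are not members, since members were chosen on these comparisons. With limma (adjusted p under 0.05) 19.2% of all expressed genes differed between naïve-like and primed cells (307 higher and 227 lower, or 218 and 261 when each library was centred on its median), 13.4% between differentiated and primed cells (372 genes, or 585 with the line as a block) and 14.1% between differentiated and naïve-like cells. Centring moved the last of these splits from 178 higher and 214 lower to 220 and 190. These counts over all genes depended on single lines. The first went from 534 to 302 without iPS-L3, 351 without iPS-S6 and 353 without iPS-L6, the second to 241 without iPS-S6, and the third from 392 to 219 without CMK6.

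The Hippo list, which holds YAP targets and regulators, had 10 expressed genes, of which 5 were members: CCN2, F3, NT5E, PTPN14 and WWTR1. Of the 5 others, 1 was lower in naïve-like than in primed cells, NUAK2, a kinase that YAP induces (-1.51, SE 0.37, limma adjusted p = 0.0063), and 0 passed between differentiated and primed cells by limma, also 0 at an unadjusted p under 0.05. The median of the 5 was -0.96 in naïve-like and -0.15 in differentiated cells. NUAK2 rose again after withdrawal, by 1.10 over naïve-like cells (SE 0.37, limma adjusted p = 0.0452).

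The list of actin, focal adhesion and membrane scaffold genes had 24 expressed genes, and CAV2, FBLIM1, LMNA, S100A11 and TM4SF18 were members. Of the 19 others, 1 was higher and 2 lower in naïve-like than in primed cells, and 2 were higher and 6 lower in differentiated than in primed cells, with medians of -0.44 and -0.43. CAV1, the main protein of caveolae, fell by 2.85 in naïve-like cells (SE 0.35, limma adjusted p = 7.56e-06) and was 1.49 higher in differentiated than in naïve-like cells (SE 0.35, limma adjusted p = 0.00525). ZYX, the adhesion protein zyxin, fell by 1.14 in differentiated cells (SE 0.24, limma adjusted p = 0.0027). LIMCH1, an activator of myosin, was higher than in primed cells in both, by 0.99 and 1.52 (limma adjusted p = 0.00697 and 0.00017).

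The BMP and TGF-beta list had 11 expressed genes, and only ID3 was a member. Of the 10 others, 3 were lower in naïve-like than in primed cells and 4 were lower in differentiated cells, with medians of -0.98 and -1.22. ID4, a relative of ID3, fell by 2.51 in naïve-like cells (SE 0.39, limma adjusted p = 0.000122) and rose by 1.52 from there after withdrawal (SE 0.39, adjusted p = 0.0102), so that it was left out of the group. LEFTY2, an inhibitor of Nodal, fell by 2.11 in naïve-like and by 4.11 in differentiated cells (SE 0.69, limma adjusted p = 0.0347 and 0.000285).

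The other lists held 2 members between them, CREB5 in the list of cAMP and CREB targets and CYTL1 in that of primed pluripotency. In the list of FGF and ERK output, 2 of 6 genes were lower in naïve-like and 3 of 6 in differentiated than in primed cells, among them ETV5, an ERK-induced ETS factor (-1.43 and -3.11, limma adjusted p = 0.0246 and 5.28e-05). Of 19 extracellular matrix genes, 5 were lower in naïve-like cells and 2 in differentiated cells, and 6 were higher and 2 lower in differentiated than in naïve-like cells. COL11A1, a fibrillar collagen, fell by 2.23 in naïve-like cells and was 2.77 higher in differentiated than in naïve-like cells (SE 0.43, limma adjusted p = 0.0011 and 0.000103).

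Of 7 Wnt genes, 2 were lower in naïve-like cells, and by limma 0 passed between differentiated and primed cells, with 2 at an unadjusted p under 0.05. Of 5 PKC and AP-1 targets, 1 was lower in naïve-like cells, and by limma 0 passed between differentiated and primed cells, nor at an unadjusted p under 0.05. Of the 4 cAMP and CREB targets that are not members, 0 passed by limma between either state and primed cells, with 2 and 0 at an unadjusted p under 0.05. Of the 5 primed pluripotency genes that are not members, 2 were lower and 1 was higher in naïve-like cells and 3 were lower in differentiated cells, and LRRN3, a relative of LRRN1, fell by 3.66 and 2.78 in them (SE 0.55, limma adjusted p = 8.66e-05 and 0.00149). Of 5 naïve pluripotency genes, 1 was higher in naïve-like cells (DPPA2, by 2.86, SE 0.61, limma adjusted p = 0.00221) and 2 were lower in differentiated than in primed cells (L1TD1 and DPPA4).

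The iPSC lines were made so that both kinds of line could be compared before and after conversion. The members were chosen on differences within lines, and a comparison of levels between lines uses the same libraries, among them those of CMK9 that the choice let differ. By limma 0 of the 69 members passed in primed medium, where 1.59% of all genes did, and 17 had an unadjusted p under 0.05 (16 lower in ESC lines), beside 438 of all genes (15.8%). Without CMK9 the members at an unadjusted p under 0.05 were 9 of 69, and those of all genes were 361 of 2776, which is 13% in both cases. The members' median difference, ESC minus iPSC lines, was -0.41, and -0.22 without CMK9, and that of all genes was -0.04 and -0.07. The smallest p-values belonged to CCN2 (mean 7.29 in ESC and 9.99 in iPSC lines, difference -2.70, SE 0.72, limma adjusted p = 0.0573), WWTR1 (-1.53, SE 0.42, adjusted p = 0.0628) and F3 (-2.53, SE 0.72, adjusted p = 0.0774). Over the alternative settings these 3 adjusted p-values ranged from 0.00848 to 0.255, from 0.00391 to 0.279 and from 0.024 to 0.254. CCN2, WWTR1 and F3 are on the Hippo list, and in each of them primed CMK9 is the lowest primed library. Without CMK9 the difference of CCN2 was -1.53 (mean 8.46 in ESC lines, SE 0.51, limma adjusted p = 0.204), that of WWTR1 -0.98 (SE 0.39, limma adjusted p = 0.279) and that of F3 -1.95 (SE 0.71, limma adjusted p = 0.229).

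Without CMK6, 5 members were lower in ESC lines in primed medium (F3, HIVEP3, RASA2, WWTR1 and CCN2), and with quantile normalization 1 was (F3). In naïve-like medium 0 members passed by limma (0.72% of all genes), with 8 members (11.6%) and 10.1% of all genes at an unadjusted p under 0.05. After withdrawal 0 passed (0.612% of all genes), with 8 members and 12.5% of all genes at an unadjusted p under 0.05, so that the shares of members were near those of all genes in both media. Without iPS-S12, SHC1 and COL6A1 were higher in ESC lines in naïve-like medium. After withdrawal SHC1, COL6A1, DCBLD1 and FAM114A1 were then higher and VTCN1 was lower in ESC lines. For the fits without CMK6, without iPS-S12 and with quantile normalization, the share of all genes that passed is not given. The calls in those fits are therefore no result about the members as a group. SHC1 had the smallest p of the members in both media with all lines in the fit, with ESC minus iPSC differences of 0.61 (SE 0.19, limma adjusted p = 0.179) and 0.58 (SE 0.19, limma adjusted p = 0.179).

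The change from the primed state itself was also compared between ESC and iPSC lines. The members were chosen on this change, with 1 line allowed to differ, which was most often the ESC line CMK9, so that the counts are a description. By limma 0 members passed for the change to naïve-like cells, as did 0.0% of all genes, with 9 members and 133 of all genes at an unadjusted p under 0.05. For the change to differentiated cells 0 members and 0.0% of all genes passed, with 15 members and 262 of all genes at an unadjusted p under 0.05. Without CMK9 the members at an unadjusted p under 0.05 were 1 (1.4%) and 6 (8.7%), beside 94 (3.4%) and 222 (8.0%) of all genes. The 4 iPSC lines share a female donor, and CMK9 is the only female ESC line, so that line type goes largely with sex and donor. Each line gave 1 library per medium. Since the main fit had no term for the line, its p-values measure the spread of libraries within groups, without the pairing by line.

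Primed iPSC lines were set beside the somatic cells of the foetus they came from. The members were chosen for high values in these primed libraries, so that the differences are a description and no test of the group. In the fit of all genes 26 of the 69 members passed the limma threshold, 19 higher in primed iPSC lines and 7 lower, beside 22.1% of all genes (18.1% higher and 4.0% lower). When the libraries were centred, which removes the median shift of 0.32 over all genes, the members were 14 higher and 10 lower and all genes 279 higher and 235 lower, in place of 503 and 111.

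LRRN1 was at 0 RPM in liver cells and 4.54 RPM in stomach cells, and at 182 RPM or more in primed libraries (difference of means 6.89). DNAJC6 was at 0 and 0.649 RPM in the somatic libraries and at 14.4 RPM or more in primed libraries (difference 4.44). ETS2 was at 22.3 and 30.8 RPM in the somatic libraries (difference 2.22). VTCN1 and TAC1 are listed at 0 in both somatic libraries.

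The 7 members past the threshold in the lower direction were LOC102120093, LOC101865018, S100A16, COL6A1, LMNA, UPP1 (uridine phosphorylase) and CD109 (a surface protein). LOC102120093 was at 1836 and 2244 RPM in liver and stomach cells (difference -6.62), and LOC101865018 at 668 and 1192 RPM (difference -5.91). S100A16 was at 269 and 543 RPM (difference -2.66) and LMNA at 612 and 329 RPM (difference -2.19). The somatic libraries are also those with COL1A2 and PDGFRA at 4516 RPM or more together, and the part of fibroblast-like cells in these differences was not tested.

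The counts of calls depended on single libraries, for members and all genes alike. They were 17 members and 369 of all genes without primed iPS-L3, 16 and 324 without primed iPS-L6, 15 and 335 without primed iPS-S6 and 16 and 442 without liver, where all 6 libraries gave 26 and 614. The 2 somatic libraries come from different organs and 1 foetus. As a description, the somatic mean was above the mean of the 14 naïve-like and differentiated libraries for 53 members (76.8%), as it was for 32.9% of all expressed genes, where the low level in the 14 libraries was part of the choice.

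**Figure D5:**
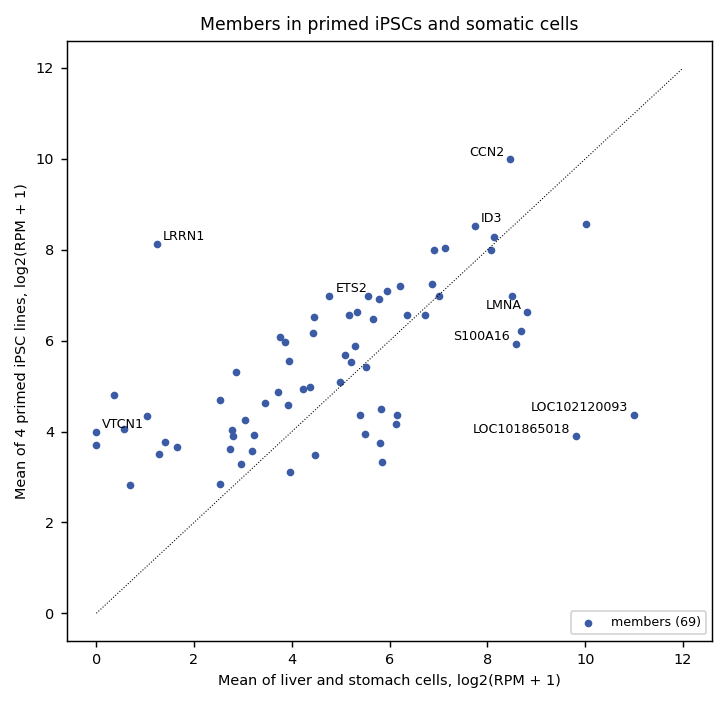
Mean of the 4 primed iPSC lines (vertical) against the mean of liver and stomach cells (horizontal), log2(RPM + 1), for the 69 members, with 1 point per member. Points above the dotted line of equal levels are higher in primed iPSC lines, with LRRN1 farthest above it, and LOC102120093 and LOC101865018 lie farthest below it.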

How the data were processed

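Libraries were made by the authors from cDNA amplified out of 1 ng of RNA and read from the 3′ end as 75 bp single reads. The submitters' processing notes name cutadapt 1.3, TopHat 1.4.1 and Cufflinks 2.2.0. The deposited values are RPM, 1 column per library without pooling of replicates, for the macfas5 build, and 1 incomplete line of the table was left out. The genes analysed here held between 24.8% and 27.5% of the RPM of a library. Between 85.5% and 92.7% of values were whole multiples of a library's step (tolerance 0.01 read), which gave its depth but not counts of every gene, so that no count model was used. PSCs were moved to laminin-coated plates without feeder cells before RNA was taken.

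The members and the pathway and marker lists were chosen with earlier results of these data known, and members were sorted by role after their values were seen. Names came from the table or, by gene ID, from RefSeq, which matched 67 members, 66 of them protein coding. Promoter sequences were not analysed here, and some genes are not reported here by name.

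Genes above 4 on the log2(RPM + 1) scale (pseudocount 1) in at least 1 of the 21 PSC libraries were fitted with limma 3.58.1 in R 4.3.3, with a mean-variance trend and Benjamini-Hochberg adjusted p under 0.05 over 2776 genes. ESC and iPSC lines were compared in 6 groups of 21 libraries, conditions in 3 groups, and primed iPSC lines with somatic cells in a fit of those 6 libraries. The same lines gave all 3 conditions by their labels, and deviations from the group means correlated at a mean of 0.27 within a line and -0.04 between lines. On simulated data with 200 of 2776 genes changed, the ESC against iPSC test in primed medium recovered 100 at a log2 change of 1 and 171 at 2. The interaction test for naïve-like against primed recovered 49 and 149. Simulated libraries were drawn independently, without the likeness within a line, so that recovery with such likeness was not measured. Tables were made with Python 3.11.15, numpy 2.4.6 and pandas 2.3.3.

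The genes named are ID3 and FBLIM1, the 12 members with the largest mean fall, the 5 highest in primed libraries, the 3 nearest to the threshold on each side, members on a list, the 5 called members with the smallest p in each tested comparison and up to 3 other genes of a list. Further members were named to account for the group, after their values were seen. Alternatives were a pseudocount of 0.1, no filter, a stricter filter (above 4 in at least 7 libraries), quantile normalization, centring, no trend, the line as a block, other samples in the fit and each line or library left out.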

Additional observations from a re-analysis of the deposited data

Results flagged for a closer look

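In 4 of 87 groups of 7 libraries (28 named members and the median of the 69, each in 3 conditions) 1 library lay far from the other 6, where chance alone gives about 4.4. ID3 in primed CMK9 was at 9.89 on the log2(RPM + 1) scale, above the next highest library at 8.81. CCN2 in primed CMK9 was at 4.95, below the next lowest library at 7.94. CREB5 in primed CMK9 was at 2.84, below the next lowest at 4.24. ETS2 in differentiated iPS-S6 was at 3.08, below the next lowest at 4.58. Of the 4 values, 3 belong to primed CMK9, the deepest library, and the part of depth in them was not tested.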

How the results depend on the processing

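The number of members was 69, and 43 with the stricter filter, all of them shared with the 69. It ranged from 61 to 91 with each line left out, with 91 without CMK9 (68 shared). With no filter 92 genes met the rule, among them the 69. Of the genes chosen on 6 lines, 81.3% (418 of 514) were lower in both media in the line left out. The share was 80.5% with a pseudocount of 0.1 and 82.7% with centring, and the level filter used all lines throughout.

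Members that passed between ESC and iPSC lines in primed medium numbered 0, and 1 with quantile normalization, and ranged from 0 to 5 with each line left out. The range was 0 to 2 in naïve-like medium and 0 to 5 after withdrawal, and the change from primed gave 0 in every setting tried. The shares of all genes that passed in these alternative fits are not given here. The 26 members called between primed iPSC lines and somatic cells became 12 with no filter, and ranged from 15 to 34 with each library left out. With no filter, the listed pathway genes that passed went from 32 to 19 (naïve-like against primed) and from 25 to 12 (differentiated against naïve-like), where more genes were tested. With each line left out they ranged from 22 to 44, from 14 to 24, and from 22 to 36 (differentiated against primed, 31 with all lines). In differentiated against naïve-like cells 14 passed without CMK6 and 16 without iPS-L6. Apart from the adjustment over more genes without a filter, the cause of these shifts was not tested.

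With the line as a block, 0 members passed between ESC and iPSC lines in any medium or change, and listed genes numbered 44, 41 and 37 in place of 32, 31 and 25, which moved no count by more than 1.5 times. Over all genes the calls rose from 372 to 585 in differentiated against primed cells (305 higher and 280 lower), and by less than 1.5 times in the other comparisons. Promoter features could not be computed and have no value here. Genes below 3 reads could not be told from absent at this depth.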
